A study of Mus musculus with 6 samples.

Results

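Genes of cholesterol synthesis and genes of fatty acid and triglyceride synthesis were compared between tetraploid and diploid hepatocytes of the mouse. The list held 44 genes, 21 of a sterol branch and 23 of a fatty acid and triglyceride branch, chosen by name for their place in the pathways. A gene counted as measured where the platform annotation named it, and no other gene, for a probe set. Where a gene had more than one such probe set, the brightest on average over the 6 arrays stood for it. This gave 40 genes of the 12393 genes on the array, 19 in the sterol branch and 21 in the fatty acid and triglyceride branch. Acat2, Insig1, Slc25a1 and Agpat2 had no probe set named in this way and are not analysed here.

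Hepatocytes, the main cell of the liver, were isolated from wild type C57BL/6 mice 3 weeks old, stained with Hoechst, a dye that binds DNA in living cells, and separated by fluorescence-activated sorting into a tetraploid fraction (3 samples) and a diploid fraction (3 samples). Both fractions shared strain, genotype, age and stain, and differed in sorted DNA content, so the tetraploid fraction could also hold diploid cells that had copied their DNA. Total RNA taken right after sorting was labelled with biotin and hybridised to Affymetrix arrays, 1 array per sample. The labels call the replicates biological without naming animals or pools, so a p-value here reflects the spread of these 6 samples and may hold technical variation.

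Cholesterol synthesis joins acetyl-CoA units through mevalonate and isoprenoids to squalene, closes squalene to lanosterol, and trims lanosterol to cholesterol. Fatty acid synthesis carboxylates acetyl-CoA to malonyl-CoA, builds palmitate from it, and then elongates, desaturates and esterifies the chains to triglyceride. Both are driven by the SREBP transcription factors, which are held in the endoplasmic reticulum while sterols are plentiful and are cut free when sterols fall. SREBP-2, from Srebf2, acts mostly on the sterol genes, and in liver SREBP-1c, from Srebf1, acts mostly on the fatty acid genes under the control of insulin and of the nuclear receptor LXR.

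The promoters of 5 members are shown. Of these, 3 (Hmgcs1, Idi1, Lss) belong to the sterol genes that moved together across the arrays. The others (Thrsp, Pnpla3) had the lowest unadjusted p-values among the tested members, not among all genes. Each window runs from 250 bases before to 50 bases after a start in the RefSeq promoter table (build GRCm38.p6), 5′ to 3′ on the strand of the gene. For Lss and Pnpla3 that start lies downstream of the outermost annotated start of the gene. Capitals mark CCAAT, the box bound by NF-Y, on either strand (ATTGG as printed where it lies on the other strand), and TCACNCCAC, letters of the sterol regulatory element that SREBPs bind.
Hmgcs1 (chr13:119690101-119690400, plus strand): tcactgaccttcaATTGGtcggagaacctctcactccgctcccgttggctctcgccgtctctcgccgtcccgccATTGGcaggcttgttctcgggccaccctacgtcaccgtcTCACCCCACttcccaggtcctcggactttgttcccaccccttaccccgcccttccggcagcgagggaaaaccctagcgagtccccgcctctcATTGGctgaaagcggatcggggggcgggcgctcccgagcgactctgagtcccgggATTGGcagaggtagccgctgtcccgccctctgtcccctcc
Idi1 (chr13:8885356-8885655, plus strand): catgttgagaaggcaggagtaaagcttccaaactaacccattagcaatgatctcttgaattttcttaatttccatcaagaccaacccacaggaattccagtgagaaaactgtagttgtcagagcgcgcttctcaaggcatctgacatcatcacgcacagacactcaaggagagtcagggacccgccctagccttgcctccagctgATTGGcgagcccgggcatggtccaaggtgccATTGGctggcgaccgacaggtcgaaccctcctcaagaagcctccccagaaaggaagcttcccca
Lss (chr10:76531355-76531654, plus strand): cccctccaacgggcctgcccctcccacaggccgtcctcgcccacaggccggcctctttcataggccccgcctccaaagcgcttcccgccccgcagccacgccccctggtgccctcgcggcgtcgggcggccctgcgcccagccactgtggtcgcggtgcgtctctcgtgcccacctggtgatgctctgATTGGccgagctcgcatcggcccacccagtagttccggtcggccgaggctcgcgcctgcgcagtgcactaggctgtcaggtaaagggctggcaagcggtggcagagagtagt
Thrsp (chr7:97417501-97417800, minus strand): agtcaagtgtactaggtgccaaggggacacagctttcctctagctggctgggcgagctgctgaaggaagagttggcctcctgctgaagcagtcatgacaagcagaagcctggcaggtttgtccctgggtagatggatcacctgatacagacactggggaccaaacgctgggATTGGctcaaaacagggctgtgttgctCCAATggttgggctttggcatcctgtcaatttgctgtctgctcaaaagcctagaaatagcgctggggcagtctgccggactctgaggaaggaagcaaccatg
Pnpla3 (chr15:84167566-84167865, plus strand): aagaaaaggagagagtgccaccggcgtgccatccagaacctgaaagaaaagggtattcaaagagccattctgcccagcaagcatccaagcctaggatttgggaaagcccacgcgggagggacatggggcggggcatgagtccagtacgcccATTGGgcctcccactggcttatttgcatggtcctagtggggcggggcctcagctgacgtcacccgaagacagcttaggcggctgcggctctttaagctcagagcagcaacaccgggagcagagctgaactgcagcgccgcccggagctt
Hmgcs1 held 4 CCAAT boxes and 1 copy of TCACNCCAC, in the form TCACCCCAC. Idi1 and Thrsp held 2 CCAAT boxes each, and Lss and Pnpla3 held 1 each.

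Promoter windows were given for 35 of the 44 listed genes, 6 of them with over 1 window. Searched on both strands, CCAAT was found in 16 of 17 sterol genes (94.1%) and in 13 of 18 fatty acid and triglyceride genes (72.2%), against 42.9% of 7512 tested genes with a window and 37.4% of all 32851 windows. TCACNCCAC was found in 1 sterol gene, Hmgcs1, and in 1 fatty acid gene, Mlxipl, against 1.45% of tested genes and 1.24% of all windows. The stricter TCACCCCAC, contained in it, was in 1 sterol gene and in 0 of 18 fatty acid genes, against 0.551% of windows. The E-box CACGTG was found in 4 sterol genes (Dhcr7, Hsd17b7, Insig1 and Sc5d) and in 3 fatty acid genes (Elovl5, Mlxipl and Slc25a1), against 12% of tested genes and 7.15% of all windows. A gene counted if any of its windows matched, so shares of genes and shares of windows are not in the same unit. Of all 27025 genes with a window, 41.1% held CCAAT, 1.44% TCACNCCAC, 0.614% TCACCCCAC and 8.09% CACGTG. All of these are matches of letters within 300 bases and no more.

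Levels below are log2 intensities, on which a step of 1 is a doubling, and a difference is the tetraploid mean less the diploid mean, given with the standard error (SE) of limma's fit across all genes. Because the arrays had been brought to nearly one distribution, each value is relative to the other transcripts of its array, and an intensity cannot be compared between genes. The 6 arrays had medians between 86.4 and 89.2 on the linear scale and correlated at a Pearson r between 0.992 and 0.997 across probe sets. Their number limits the precision, with a median standard error of 0.095 over 9295 tested genes. Genes in the dimmest 25%, with a mean log2 intensity under 5.06, were not tested. Acaca, the acetyl-CoA carboxylase that supplies malonyl-CoA for synthesis, was among them, at 4.69, 4.40 and 4.69 in tetraploid replicates 1 to 3 and 4.65, 4.68 and 4.72 in diploid replicates 1 to 3. The remaining 39 members were tested.

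No member passed an adjusted p of 0.05 by limma with Benjamini-Hochberg adjustment over all genes tested, nor did any other gene (0 of 9295, 0%). At an unadjusted limma p under 0.05 there were 2 of 39 members, both lower in tetraploid cells, where 6.18% of all genes were at such a p, 3.85% lower and 2.32% higher. The 3 tetraploid values lay wholly below the 3 diploid values for 3 members and wholly above them for 0, against 7.08% and 5.22% of all genes (12.3% in either direction). These shares are near those of all genes. The count of means leaned one way, with 28 of 39 members lower in tetraploid cells, where 52.2% of all genes were lower. That count moved with single arrays: 16 members were lower without tetraploid replicate 2, 19 without diploid replicate 1 and 33 without diploid replicate 3. The median difference was -0.03 in the sterol branch and -0.10 in the fatty acid and triglyceride branch, against -0.006 over all genes tested.

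The sterol genes varied more within the fractions than between them. In all 19 sterol genes tested, tetraploid replicate 2 was the lowest of the 3 tetraploid arrays and diploid replicate 3 was the lowest of the 3 diploid arrays. Over all genes tested, 20.3% had this order, which was noticed in the data and is a description with no test. The median within-fraction SD of the sterol genes was 0.22 on the log2 scale, against 0.12 over all genes, and 2 of 19 sterol genes had a ploidy difference larger than their own within-fraction SD, where 32% of all genes did. In 17 further probe sets above the same dimness limit, for 11 of the sterol genes and on the same arrays, the order held in 15 (88.2%), against 19.2% of 5243 such probe sets. One probe set each for Fdft1 and Stard4 departed from it.

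As a level over the sterol branch, the mean deviation of its 19 genes from their own 6-array means was 0.09, -0.26 and 0.11 in tetraploid replicates 1 to 3 and 0.15, 0.11 and -0.20 in diploid replicates 1 to 3. Each fraction thus held a pair of high arrays and 1 low array. The range within a fraction was 0.37 among tetraploid arrays and 0.36 among diploid arrays, and the fraction means differed by -0.04. Single arrays set the sign of the branch median, which was -0.10 without tetraploid replicate 1 or 3, 0.11 without tetraploid replicate 2, 0.03 without diploid replicate 1, 0.04 without diploid replicate 2 and -0.15 without diploid replicate 3. Without tetraploid replicate 2 only 3 of the 19 genes had a lower tetraploid mean, 5 without diploid replicate 1, 8 without diploid replicate 2 and 18 without diploid replicate 3, against 12 on all 6 arrays.

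**Figure D1:**
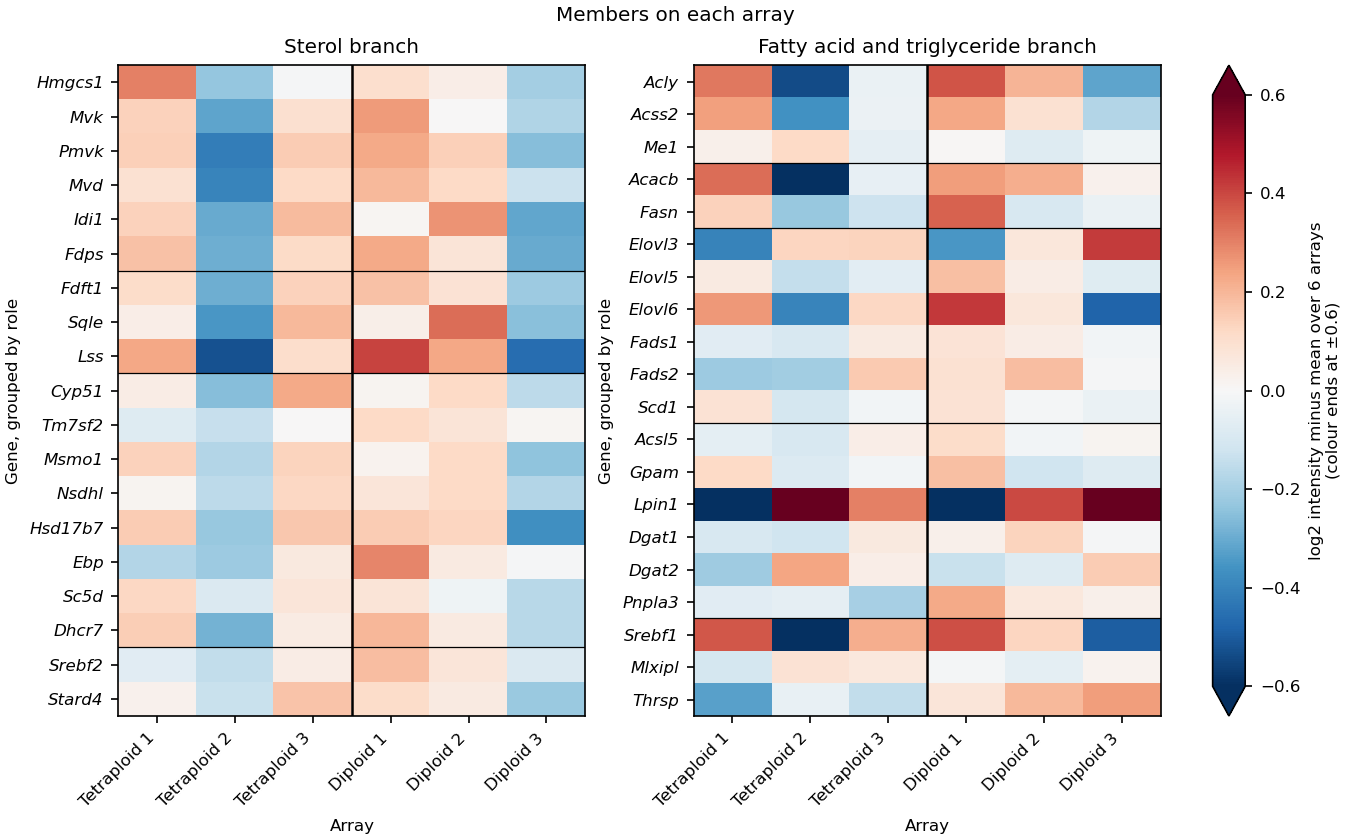
Each row is a tested member, grouped by role, and each column an array. Colour is the log2 intensity less the 6-array mean of the gene. In the sterol branch the columns of tetraploid replicate 2 and diploid replicate 3 are the lowest of their fraction in all 19 rows, while in the fatty acid and triglyceride branch Lpin1 has its highest values there.

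The first steps of the sterol branch, which make isoprenoid units, showed this order at close to the same size in each gene. Hmgcs1, the synthase that condenses acetyl-CoA and acetoacetyl-CoA, was at 14.40, 13.86 and 14.09 in tetraploid replicates 1 to 3, against 14.19, 14.14 and 13.89 in diploid replicates 1 to 3. The fractions overlapped, and the difference was 0.04 ± 0.15 (SE, n = 3 per fraction; limma adjusted p = 0.978). Mvk and Pmvk, the kinases that phosphorylate mevalonate in turn, differed by -0.05 ± 0.15 and -0.08 ± 0.19. Mvd, the decarboxylase that yields the first isoprenoid, differed by -0.12 ± 0.16, and a second probe set went the other way at 0.07. Idi1, the isomerase of the isoprenoid units, and Fdps, which joins them to farnesyl diphosphate, differed by 0.02 ± 0.18 and -0.001 ± 0.17. For these 6 genes 4 means were lower in tetraploid cells and 2 higher, and their within-fraction SDs ran from 0.22 to 0.29.

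The 3 enzymes that make and close squalene had the widest spread of the branch by role. Sqle, the rate-setting squalene epoxidase, was at 10.92, 10.53 and 11.07 in tetraploid replicates 1 to 3, against 10.91, 11.21 and 10.63 in diploid replicates 1 to 3, a difference of -0.08 ± 0.18 (limma adjusted p = 0.964). Lss, the cyclase that forms lanosterol, was at 9.996, 9.24 and 9.87 in tetraploid replicates 1 to 3. Its diploid values were 10.17, 9.997 and 9.31 in replicates 1 to 3. Its range within a fraction, 0.76 among tetraploid and 0.86 among diploid arrays, was larger than its ploidy difference of -0.12 ± 0.27. Further, dimmer probe sets for Lss differed by 0.03 and -0.18. Fdft1, the squalene synthase, differed by -0.03 ± 0.15, and its further probe sets by -0.16, -0.13 and -0.07. On the brightest probe sets all 3 means were lower in tetraploid cells, with overlapping fractions.

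Among the 8 enzymes that turn lanosterol into cholesterol, 4 means were lower and 4 higher. Tm7sf2, a sterol reductase, was at 11.30, 11.24 and 11.38 in tetraploid replicates 1 to 3, against 11.50, 11.46 and 11.39 in diploid replicates 1 to 3. It was the one sterol gene whose fractions did not overlap, by a narrow margin, and it differed by -0.14 ± 0.07 (limma unadjusted p = 0.0957, adjusted p = 0.839). Ebp, the sterol isomerase, was at 12.38, 12.34 and 12.62 in the tetraploid arrays and at 12.85, 12.61 and 12.55 in the diploid arrays, a difference of -0.22 ± 0.11 (limma unadjusted p = 0.0829, adjusted p = 0.823). Only tetraploid replicate 3 reached into the diploid range. Both genes kept the shared order of arrays as well.

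Sc5d, a sterol desaturase, had its tetraploid values at 13.60, 13.39 and 13.54 and its diploid values at 13.55, 13.45 and 13.31. It differed by 0.07 ± 0.09, and a second, dimmer probe set by 0.33. Hsd17b7, the keto-reductase of the demethylation steps, was at 9.85, 9.47 and 9.86 in tetraploid replicates 1 to 3 and at 9.85, 9.83 and 9.33 in diploid replicates 1 to 3. In it the low array of each fraction stood apart from a close pair, and the difference was 0.06 ± 0.17. Cyp51, which removes the first methyl group of lanosterol, and Msmo1, the next methyl oxidase, differed by 0.01 ± 0.13 and 0.07 ± 0.13. Nsdhl, a decarboxylating dehydrogenase, and Dhcr7, which makes cholesterol from its last precursor, differed by -0.01 ± 0.11 and -0.06 ± 0.14. The fractions overlapped in all of these.

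The regulator of the branch followed the same order over a narrower range. Srebf2 was at 7.62, 7.53 and 7.73 in tetraploid replicates 1 to 3, against 7.87, 7.75 and 7.60 in diploid replicates 1 to 3, a difference of -0.11 ± 0.09 (limma adjusted p = 0.893). A second, slightly dimmer probe set differed by 0.16, with its tetraploid values (7.56, 7.54 and 7.55) wholly above its diploid ones (7.49, 7.37 and 7.30). The direction of Srebf2 therefore depends on the probe set. Stard4, which carries cholesterol between membranes, differed by 0.04 ± 0.12.

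The fatty acid and triglyceride genes did not share 1 order of the arrays. In 9 of the 20 tested genes tetraploid replicate 2 and diploid replicate 3 were the lowest of their fraction, where 20.3% of all genes had that order. In 4 genes, Lpin1, Dgat2, Mlxipl and Thrsp, they were the highest, a share near the 17.8% of all genes with that opposite order. The mean deviation of the branch over all 20 genes was -0.07, -0.10 and 0.022 in tetraploid replicates 1 to 3 and 0.05, 0.07 and 0.024 in diploid replicates 1 to 3. The fractions did not overlap, by the narrow gap between 0.022 and 0.024, and their means differed by -0.10, with SDs of 0.06 over 3 tetraploid and 0.02 over 3 diploid arrays; no test of this was made. Without Lpin1, whose range exceeds that of every other member, the mean deviation of the branch was 0.02, -0.17 and 0.01 in tetraploid replicates 1 to 3 and 0.14, 0.05 and -0.04 in diploid replicates 1 to 3. The fractions then overlapped, with a difference of -0.10 and SDs of 0.11 and 0.09 over 3 tetraploid and 3 diploid arrays. The low arrays were those of the sterol branch, over a smaller range (0.19 within tetraploid and 0.18 within diploid arrays).

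**Figure D2:**
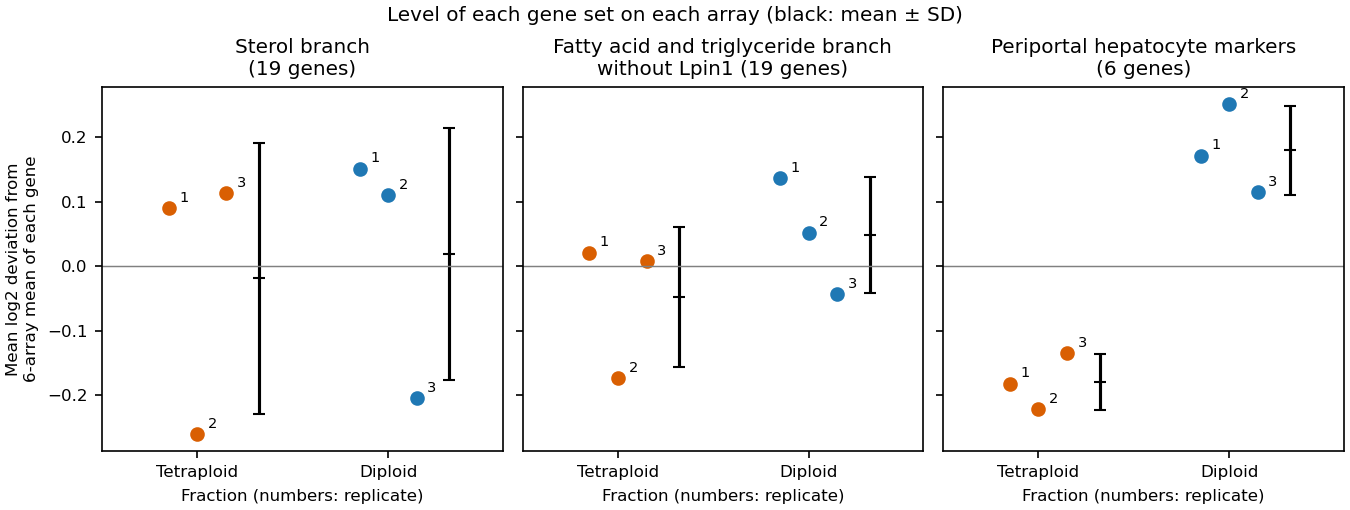
Each point is an array, with its replicate number, at the mean deviation of the named genes from their 6-array means in log2. Black marks are the mean and SD of 3 arrays. The sterol branch has tetraploid replicate 2 at -0.26 and diploid replicate 3 at -0.20 apart from the other arrays, whereas for 6 periportal markers the fractions stand apart.

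Among the genes that supply carbon and reducing power, Acly, which releases acetyl-CoA from citrate in the cytosol, and Acss2, which makes it from acetate, shared the order of the sterol genes. Acly differed by -0.17 ± 0.25 with a range of 0.85 among tetraploid arrays, and Acss2 by -0.10 ± 0.17. A second probe set for Acss2 differed by -0.21. Me1, the malic enzyme that yields NADPH, did not share the order and differed by 0.06 ± 0.08. Of the chain builders, Fasn, the fatty acid synthase, was at 10.02, 9.66 and 9.76 in tetraploid replicates 1 to 3, against 10.24, 9.79 and 9.84 in diploid replicates 1 to 3, a difference of -0.14 ± 0.15 (limma adjusted p = 0.907). In both fractions replicate 1 was the highest.

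Acacb, the carboxylase at the mitochondrial membrane that restrains fatty acid oxidation, was at 7.22, 6.10 and 6.84 in the tetraploid arrays and at 7.13, 7.10 and 6.91 in the diploid arrays. Tetraploid replicate 2 alone was far below the rest, and the difference of -0.33 ± 0.25 (limma adjusted p = 0.893) was -0.02 without it.

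On their brightest probe sets all 6 enzymes of elongation and desaturation had a lower tetraploid mean, by between 0.007 and 0.18. None passed the test, and for Elovl6, Fads2 and Scd1 another probe set went the other way. Elovl6, which elongates palmitate, was at 9.23, 8.58 and 9.09 in tetraploid replicates 1 to 3, against 9.40, 9.04 and 8.49 in diploid replicates 1 to 3, a difference of -0.01 ± 0.25. Its arrays were ordered as in the sterol branch. Fads2, the desaturase that opens polyunsaturated fatty acid synthesis, was at 10.72, 10.73 and 11.10 in the tetraploid arrays and 11.03, 11.13 and 10.93 in the diploid arrays, a difference of -0.18 ± 0.12 (limma unadjusted p = 0.164, adjusted p = 0.860). A second probe set for it differed by 0.04, so its direction depends on the probe set. Scd1, which makes monounsaturated fatty acids, was at 13.43, 13.24 and 13.33 in the tetraploid arrays and 13.43, 13.33 and 13.30 in the diploid arrays, a difference of -0.02 ± 0.08. A dimmer probe set for Scd1 differed by 0.21, with all its tetraploid values above all its diploid values. A second one for Elovl6 differed by 0.002, so no direction can be given for either gene. Fads1 differed by -0.08 ± 0.07, Elovl5 by -0.10 ± 0.09 and Elovl3, the elongase of very long saturated chains, by -0.09 ± 0.22.

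Lpin1, the phosphatidate phosphatase that makes the diglyceride for triglyceride synthesis and also acts as a transcriptional coactivator, varied more between arrays than any other member. It was at 9.89, 12.90 and 11.93 in tetraploid replicates 1 to 3, against 10.09, 12.03 and 12.95 in diploid replicates 1 to 3. Each fraction held a low, a middle and a high array, the high ones being those at which the sterol genes were lowest, and the 3 levels matched closely between the fractions. The range was 3.01 among tetraploid and 2.86 among diploid arrays, while the ploidy difference was -0.12 ± 0.90. A second probe set gave 9.73, 12.88 and 11.94 in the tetraploid arrays and 10.09, 12.07 and 13.04 in the diploid arrays. Lpin2, a relative of Lpin1 named after its values were seen, was at 10.89, 11.90 and 11.56 in tetraploid and 10.95, 11.53 and 12.09 in diploid replicates 1 to 3, with the same order.

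Most other genes of chain activation and triglyceride assembly differed little between the fractions on their brightest probe set. Dgat2, one of the enzymes that add the last acyl chain, differed by 0.04 ± 0.13, and Dgat1, the other, by -0.10 ± 0.08. Acsl5, which activates fatty acids, and Gpam, the first acyltransferase of glycerolipid synthesis, differed by -0.07 ± 0.08 and 0.01 ± 0.10. Pnpla3, a lipid droplet protein induced by SREBP-1c, was at 5.73, 5.75 and 5.61 in tetraploid replicates 1 to 3, against 6.03, 5.87 and 5.84 in diploid replicates 1 to 3. Its fractions did not overlap, and it differed by -0.22 ± 0.08 (limma unadjusted p = 0.0356, adjusted p = 0.779). It was among the dimmer genes tested, where differences are compressed.

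Of the regulators, Srebf1 was at 11.66, 10.68 and 11.51 in tetraploid replicates 1 to 3, against 11.68, 11.42 and 10.80 in diploid replicates 1 to 3. The array order was that of the sterol genes, with a range of 0.98 in tetraploid and 0.88 in diploid cells, and the ploidy difference was -0.02 ± 0.30 (limma adjusted p = 0.997). Its probe set does not separate the SREBP-1a and SREBP-1c transcripts by name. Mlxipl, which encodes the glucose-responsive factor ChREBP, was at 10.28, 10.48 and 10.45 in the tetraploid arrays and 10.38, 10.33 and 10.41 in the diploid arrays, a difference of 0.03 ± 0.08. All 6 values lay within 0.20 of each other.

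Thrsp, the Spot 14 protein of lipogenic tissue that responds to thyroid hormone and carbohydrate, had the lowest p-value of all members. It was at 11.89, 12.17 and 12.06 in tetraploid replicates 1 to 3, against 12.28, 12.41 and 12.46 in diploid replicates 1 to 3. All tetraploid values lay below all diploid values, and the difference was -0.35 ± 0.10, with a 95% interval from -0.57 to -0.12 (limma unadjusted p = 0.00761, adjusted p = 0.553). A second, dimmer probe set differed by -0.33 and its fractions did not overlap either, at 10.49, 10.75 and 10.53 in tetraploid and 10.80, 10.94 and 11.04 in diploid replicates 1 to 3. Within each fraction its array order was the opposite of that of the sterol genes. With single arrays left out the difference ran from -0.41 to -0.27.

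**Figure D3:**
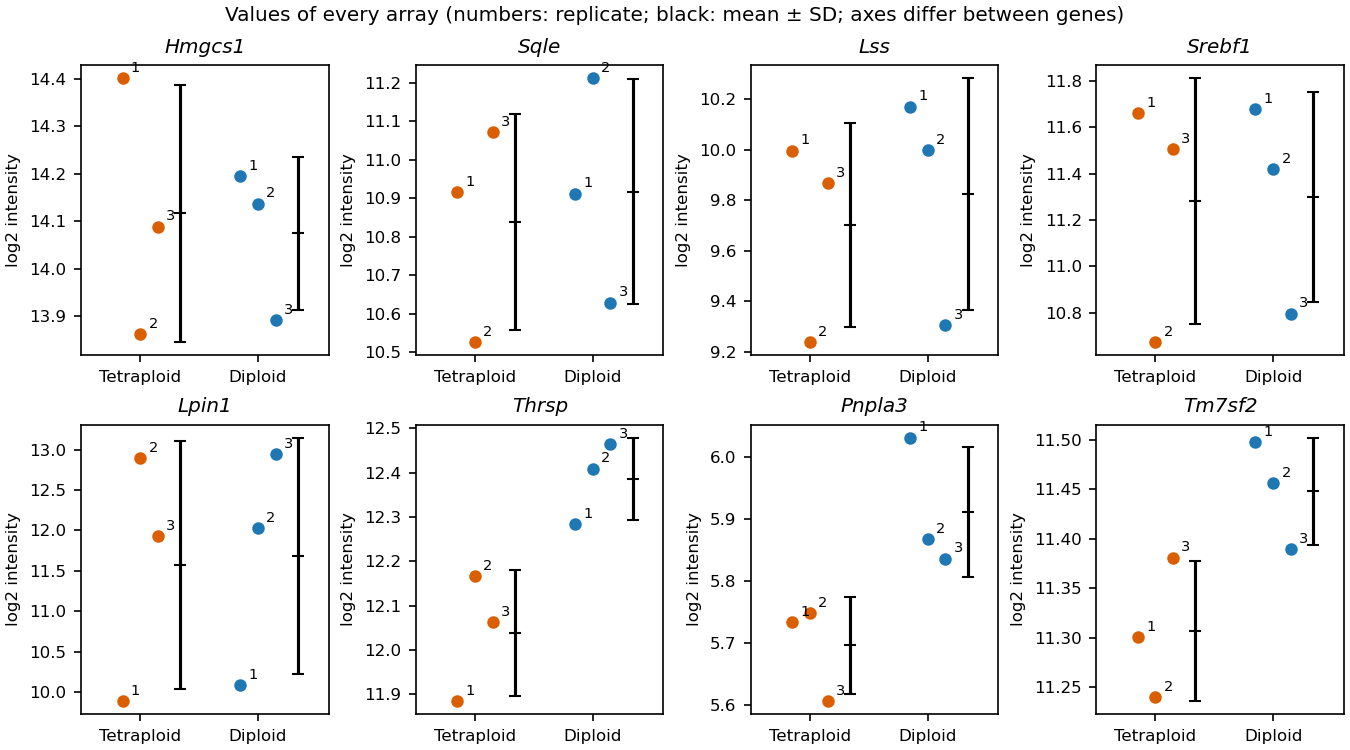
Each panel gives the log2 intensity of a gene on each array, with the replicate number beside the point and the mean ± SD of 3 arrays in black, on an axis of its own. Hmgcs1, Sqle, Lss and Srebf1 are lowest at tetraploid replicate 2 and diploid replicate 3, Lpin1 is highest there, and Thrsp, Pnpla3 and Tm7sf2 have fractions that do not overlap.

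Set side by side, 16 of 20 fatty acid and triglyceride genes and 12 of 19 sterol genes had a lower tetraploid mean, and the sterol median exceeded the other by 0.07. The sterol level minus the fatty acid and triglyceride level was 0.16, -0.16 and 0.09 in tetraploid replicates 1 to 3 and 0.10, 0.04 and -0.23 in diploid replicates 1 to 3, so the fractions overlapped widely. The fraction means of this contrast differed by 0.06, with SDs of 0.17 and 0.18 over 3 tetraploid and 3 diploid arrays, and no test of it was made. Lpin1 counts in these levels, and without it the contrast was 0.07, -0.09 and 0.11 in tetraploid replicates 1 to 3 and 0.01, 0.06 and -0.16 in diploid replicates 1 to 3. The difference was again 0.06, with smaller SDs of 0.10 over the tetraploid and 0.12 over the diploid arrays. The gap between the medians was 0.0003 without tetraploid replicate 1, 0.15 without tetraploid replicate 2, 0.02 without tetraploid replicate 3, 0.11 without diploid replicate 2 and -0.005 without diploid replicate 3. The fatty acid and triglyceride median was -0.05 without tetraploid replicate 2, -0.03 without diploid replicate 1 and -0.15 without diploid replicate 3.

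**Figure D4:**
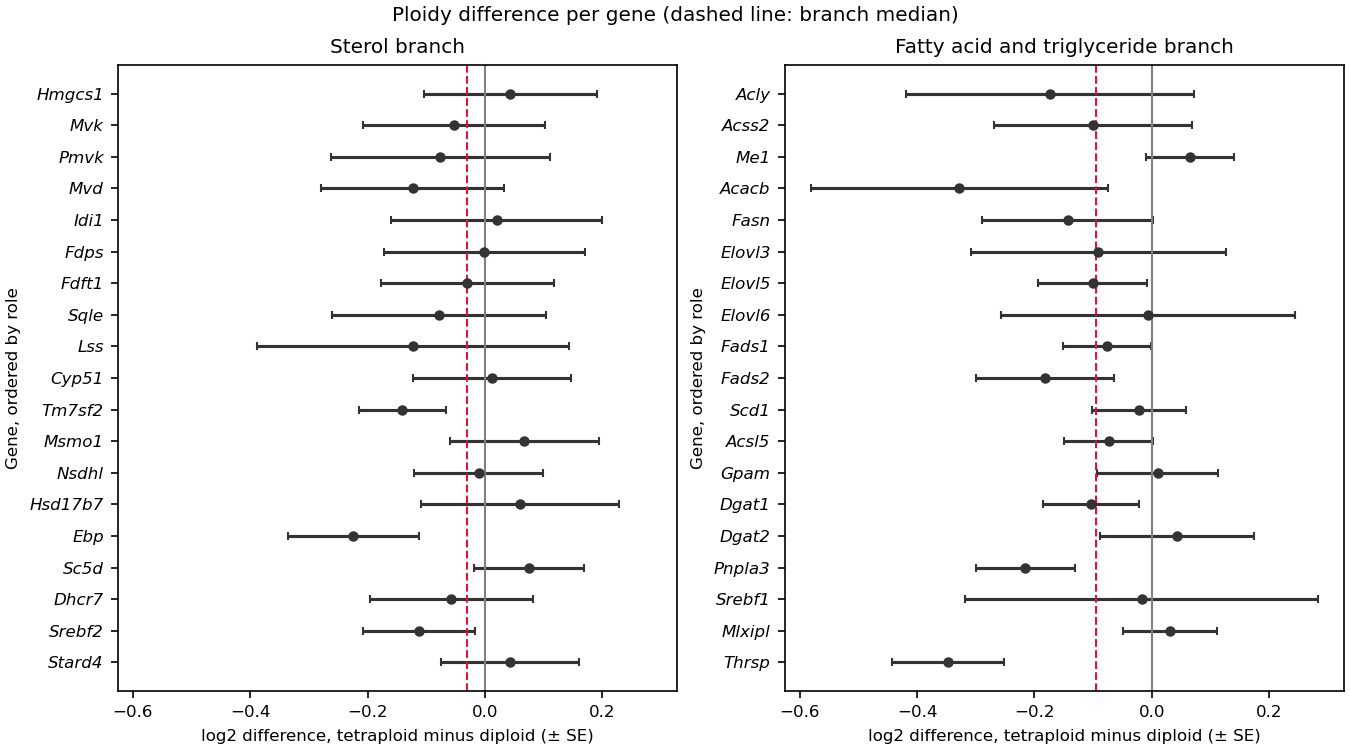
Points are log2 differences (tetraploid mean less diploid mean) with limma's standard error, and dashed lines are the branch medians at -0.03 (sterol) and -0.10 (fatty acid and triglyceride). Lpin1 (-0.12 ± 0.90) is not drawn because its error would set the scale, though it counts in the median. Thrsp lies farthest from 0.

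Other genes of the pathway, listed by function, had differences around 0. Of 37 such genes 24 were tested, 15 with a higher and 9 with a lower tetraploid mean, and a median of 0.01. By limma 0 passed the adjusted threshold, and 1 was at an unadjusted p under 0.05, where 6.18% of all genes were. Of the SREBP processing genes (3 tested), Mbtps1, the first protease that cuts SREBPs, differed by 0.05 ± 0.08 and Insig2, which retains them, by -0.06 ± 0.17. Of the inputs to Srebf1 (4 tested), the E-box factor Usf2 differed by -0.06 ± 0.08 and Nr1h3, the liver LXR, by -0.02 ± 0.08. Of the isoprenoid side branches (4 tested), Ggps1, which makes the geranylgeranyl group, differed by 0.28 ± 0.11 (limma unadjusted p = 0.0412, adjusted p = 0.794), and Fntb, a farnesyltransferase subunit, by -0.24 ± 0.11. Of the sterol handling genes (5 tested), the lysosomal cholesterol transporters Npc1 and Npc2 differed by 0.16 ± 0.13 and -0.07 ± 0.07. Of the storage and activation genes (8 tested, 4 too dim), the droplet protein gene Cideb differed by -0.12 ± 0.10 and the fatty acid transporter Cd36 by 0.11 ± 0.13. The order of the sterol genes was shared by 3 of these 24, and the opposite order by 6, against 20.3% and 17.8% of all genes.

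Markers of the hepatocyte were bright on all arrays, with summed intensities of 147562 to 155307 in tetraploid and 146227 to 155169 in diploid samples over 5 measured genes. These sums rest most on Alb, Ttr and Apoa1. On the log2 scale Alb read the same, 15.57, in tetraploid replicates 1 to 3 and diploid replicate 2. Near-equal sums of such bright genes, on arrays brought to nearly one distribution, cannot show an equal content of hepatocytes. Markers of the zones of the liver lobule differed on average between the fractions. All 6 measured periportal markers had a lower tetraploid mean, 5 of them without overlap, where 7.08% of all genes were lower without overlap. Their summed intensities were 51584 to 56155 in tetraploid and 60397 to 63905 in diploid samples. A higher tetraploid mean was seen in 7 of 8 pericentral markers, the exception being Glul at -0.11 ± 0.11. Their sums were 46913 to 49910 in tetraploid and 44030 to 44342 in diploid samples. Such sums rest most on the brightest genes, here Cps1 among periportal and Cyp2e1 among pericentral markers. Cps1 was the periportal marker whose fractions overlapped, at -0.03 ± 0.07. Cyp2f2, also bright, differed by -0.32 ± 0.08 without overlap. None of these zone markers passed the adjusted threshold, and their part in the differences of Thrsp, Pnpla3 and Tm7sf2 was not tested. Liver endothelial markers had a higher tetraploid mean in 7 of 8 tested genes, the exception being Stab2 at -0.24 ± 0.21. Without overlap 3 were higher, where 5.22% of all genes were, and 0 passed the adjusted threshold. Sums over 9 measured endothelial genes were 1128 to 1320 in tetraploid and 1006 to 1133 in diploid samples, and Pecam1 was too dim to test. Sums for Kupffer cells (6 genes, Cd68 and Vsig4 dim) were 255 to 302 in tetraploid and 288 to 317 in diploid samples. Those for stellate cells (6 genes, Lrat, Col1a1 and Col3a1 dim) were 745 to 782 in tetraploid and 680 to 759 in diploid samples, and those for bile duct (4 genes, Krt7 and Epcam dim) 149 to 153 in tetraploid and 152 to 172 in diploid samples. Those for leukocytes (4 genes, Ptprc, Cd79a and Cd2 dim) were 123 to 139 in tetraploid and 145 to 153 in diploid samples. For leukocytes 3 of 4 genes and for bile duct 2 of 4 lay under the dimness limit, so these sums may hold mostly background signal. Fewer cells of a type, less RNA per cell and background signal cannot be told apart in such samples.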

How the data were processed

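RNA of 3 tetraploid and 3 diploid hepatocyte samples was measured on Affymetrix arrays. The deposited table holds linear intensities (a scale inferred from their size) for each probe set, made by the authors with RMA per the submitters' processing notes, which corrects background, equalises the arrays and summarises probes. Its version is not given in the sources used here.

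Values were put on the log2 scale for testing. Of 22690 probe sets, 64 were controls, 20380 had 1 gene symbol, 691 several and 1555 none. Symbols were checked against RefSeq (GRCm38.p6) by Entrez identifier, with 20351 matches and 0 changes. Of 12393 genes, 3098 dim ones were left out. Of the tested members, 23 had over 1 probe set, for 9 of which another probe set went the other way. A further mark (_a, _s or _x in the probe set name) was carried by the probe set of 13 members. Such probe sets may match several transcripts or other sequences, and those of Fdft1 and Acly carried _x.

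Fractions were compared with limma 3.58.1 under R 4.3.3 (moderated two-sided test, lmFit then eBayes, ploidy alone, Benjamini-Hochberg over 9295 genes, threshold 0.05). On values simulated for all 9295 genes tested, in 10 runs, it recovered 81.8% of 1.5-fold and 99.1% of 2-fold changes, with 5.26% false calls. No rate was worked out for the members alone, or for arrays that deviate together as some did here. The sterol genes had a median within-fraction SD of 0.22, against 0.12 over all genes. These rates may therefore overstate what could be detected among the members. Members, lists and naming rule (all members, values per array for regulators, rate-setting enzymes and the lowest p-values of each branch, and the 2 lowest p-values of each further list) were chosen with earlier results of these data known. Branches are described with no test. Alternatives covered the dim filter, the probe set, scaling, a replicate block, the variance model and each array left out.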

Additional observations from a re-analysis of the deposited data

How the results depend on the processing

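Of 39 tested members, 0 passed the adjusted threshold under any alternative, the smallest adjusted p being 0.386 (Thrsp with an intensity trend), and 13 kept their sign throughout. The count of genes past the threshold, 0 on all 6 arrays, was 9 with the replicate block and 0 to 1 with single arrays left out. Same-numbered arrays deviated together from their fraction means across 9295 genes for replicate 1 (r = 0.57) but not for replicate 2 (-0.20) or 3 (-0.20), so the numbers were not taken to pair the samples. The highest correlations were 0.69 between tetraploid replicate 2 and diploid replicate 3 and 0.38 between tetraploid replicate 3 and diploid replicate 2, a hint from the data and not from the labels. The block changed no call of a member. It joined same-numbered arrays, which did not deviate together for replicates 2 and 3, so it cannot show how a true pairing would affect the calls.

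The count of members at an unadjusted p under 0.05, 2 on all arrays, was 1 with the 50% dimmest genes left out, which removes Pnpla3, 1 with an intensity trend, and 1 to 3 with single arrays left out (1 without diploid replicate 1 or 2). The fatty acid and triglyceride median ran from -0.15 (without diploid replicate 3) to -0.033 (without diploid replicate 1), the number of lower sterol genes from 3 to 18, and the number of lower members, 28 on all arrays, from 16 to 33. The cause of the sign changes that follow was not tested. Differences turned sign for Mvd (0.075) and Lss (0.028) on unmarked probe sets, for Cyp51 (-0.0090), Srebf2 (0.024) and Scd1 (0.094) with the mean of all probe sets, for Fdps (0.0049) after renewed quantile normalization, and for Fdps (0.038), Nsdhl (0.00043), Elovl6 (0.068) and Srebf1 (0.047) with array weights. Leaving out single arrays turned the sign of 25 members, with ranges of Hmgcs1 -0.099 to 0.17, Mvk -0.16 to 0.092, Pmvk -0.22 to 0.11, Mvd -0.22 to 0.044, Idi1 -0.13 to 0.18, Fdps -0.15 to 0.15, Fdft1 -0.15 to 0.11, Sqle -0.22 to 0.076, Lss -0.38 to 0.11, Cyp51 -0.097 to 0.14, Msmo1 -0.037 to 0.17, Nsdhl -0.10 to 0.065, Hsd17b7 -0.11 to 0.19, Dhcr7 -0.16 to 0.070, Stard4 -0.060 to 0.12, Acly -0.38 to 0.051, Acss2 -0.25 to 0.057, Elovl3 -0.29 to 0.095, Elovl6 -0.25 to 0.20, Scd1 -0.070 to 0.024, Gpam -0.047 to 0.10, Lpin1 -0.92 to 0.73, Dgat2 -0.064 to 0.16, Srebf1 -0.27 to 0.29, Mlxipl -0.0058 to 0.092.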

Other observations

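Insig2, which holds SREBPs in the endoplasmic reticulum, was at 11.60, 11.05 and 11.42 in tetraploid replicates 1 to 3 and at 11.60, 11.50 and 11.16 in diploid replicates 1 to 3, the order of the sterol genes. Tat, the tyrosine aminotransferase of the hepatocyte marker list, was at 12.29, 13.52 and 13.41 in tetraploid replicates 1 to 3 and at 12.58, 13.46 and 13.55 in diploid replicates 1 to 3, the opposite order and that of Lpin1. Both were singled out after their values were seen, and no test was made of either.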
